A study of Mus musculus with 19 samples.

Results

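The genes described here are 38 genes of sugar metabolism and of the hypoxia-inducible factor (HIF) response, chosen by name from the 23951 genes of each of 2 deposited expression tables. All 38 were found in both tables. They comprise 2 glucose transporters, 12 genes of the upper and 6 of the lower glycolytic pathway, 5 genes of lactate and pyruvate handling, 5 of the pentose phosphate pathway, and Hif1a with 7 genes of the HIF response. Levels were measured by RNA sequencing in microglia, the resident macrophages of the brain, sorted from mouse hippocampus by CD11b and CD45, in 15 libraries that form 5 groups of 3.

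All 5 groups carried 1 copy of Cx3cr1CreER, a tamoxifen-inducible Cre recombinase driven by the Cx3cr1 gene, which is active in microglia and also in other macrophages of the brain's borders and in some blood monocytes. Every mouse received tamoxifen at 50 mg/kg on 5 days. The 3-month set compared Cx3cr1CreER mice with and without PU.1 fl/fl, the floxed alleles of Spi1 that allow PU.1 to be deleted, with tissue taken 1 week after tamoxifen. The 4.5-month set compared CK control littermates, CK-p25 mice and CK-p25 mice that also had PU.1 fl/fl (CK-p25 PU.1cKO, here the knockout), with tissue taken 6 weeks after tamoxifen and p25 induction. In CK-p25 mice a transgene driven by a forebrain neuronal promoter produces p25, an activator of the kinase Cdk5, in excitatory neurons, which then degenerate, so the stimulus arises outside the microglia. Whether the 3 libraries of each group are from different mice is not given in the labels. The p-values therefore measure only how these samples spread, which may be technical. A further 4 chromatin immunoprecipitation samples were not analysed here.

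The labels of the 3-month samples conflict. By their descriptions, the columns named MIC_PU1 belong to the samples titled as wild type for PU.1 and the columns named MIC_CX3CR1 to those titled as the knockout, while the source names say the reverse. Spi1, the targeted gene, measured 409, 338 and 337 FPKM (fragments scaled to transcript length and library size) in the MIC_CX3CR1 columns and 261, 105 and 248 in the MIC_PU1 columns, so it was lower in the columns that carry its name, against the titles (log2 difference -0.92 ± 0.35, adjusted p = 0.0853). That difference passed under quantile normalization (-1.135, adjusted p = 0.0126) and without MIC_PU1 replicate 2 (-0.50, adjusted p = 0.0478), but in no other alternative fit. The groups of this set are therefore called by their column names, and which of them had the floxed alleles is not settled. The 4.5-month libraries had Spi1 at 257, 229.7 and 251 FPKM in CK, against 251, 208 and 298 in CK-p25 and 165, 152 and 224 in the knockout. The knockout libraries were all below CK, with a difference of -0.46 ± 0.17 that did not pass the test (adjusted p = 0.0751), and 1 of them lay within the CK-p25 range. The difference from CK passed under quantile normalization (-0.85, adjusted p = 0.00495) and with the replicate number as a block (adjusted p = 0.0237). It also passed with only the compared libraries (adjusted p = 0.0464). Leaving out CK-p25 replicate 3 (adjusted p = 0.0407) or knockout replicate 3 (-0.63, adjusted p = 0.0221) had the same result, and no other alternative fit did.

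Several libraries stood apart. CK-p25 replicate 3 was the only 4.5-month library with a label in its description starting 180620, all others having 160706. It had an estimated 0.687 of the reads of CK replicate 1, against 0.887 to 0.971 in the other 7 libraries, and 42.1% of genes listed at 0, against 31.6% to 36.4%. Summed markers of oligodendrocytes reached 465 FPKM in CK-p25 replicate 2 and 261 and 310 in CK-p25 PU.1cKO replicates 2 and 3, against 52.1 to 132 in the other 4.5-month libraries. Gfap, an astrocyte gene, was higher in both p25 groups than in CK (log2 differences 4.02 ± 0.85, adjusted p = 0.00829, and 4.17 ± 0.85, adjusted p = 0.00683). CK replicate 1 had only 4.4 FPKM over 4 border macrophage genes, against 176 and 213 in its group, and 0.145 FPKM over 4 neutrophil genes, against 116 and 69.3, and CK-p25 replicate 2 had 782 FPKM over the latter, against 0 and 1.77. MIC_PU1 replicate 1 had a summed level of 13990 FPKM over the neutrophil genes, against 80.6 and 98.1 in its group, and MIC_PU1 replicate 2 had 846 FPKM over the border macrophage genes, against 219 and 319. Summed levels of 8 microglia markers ran from 7921 FPKM, in MIC_PU1 replicate 2, to 32068 over the 15 libraries. In MIC_PU1 replicate 1 that sum was 12714 FPKM, below its 13990 FPKM over the neutrophil genes. In every other library the microglia sum was the largest of the marker sums. All 8 microglia markers were lower in MIC_PU1 than in MIC_CX3CR1, and 5 of 8 in CK-p25 and 7 of 8 in CK-p25 PU.1cKO were lower than in CK. The part of these marker differences in the results on metabolic genes was not tested. In RNA from a bulk sort, fewer cells of a type and less RNA per cell cannot be told apart.

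Glycolysis splits glucose into pyruvate, yielding ATP without oxygen. Pyruvate can be reduced to lactate, which restores the NAD+ that glycolysis consumes, or enter the mitochondria. The pentose phosphate pathway branches off at glucose 6-phosphate and yields NADPH, used for reductive synthesis and by the oxidase of phagocytes, and ribose for nucleotides. HIF-1 is formed by the HIF-1 alpha protein and its partner ARNT, and HIF-1 alpha is degraded when oxygen is plentiful, because prolyl hydroxylases mark it for destruction. When it persists, HIF-1 raises the transcription of many glycolytic genes, and macrophages activated by bacterial products are known to do this in normal oxygen too.

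Promoter sequence is shown for 5 genes that differed in 1 or more comparisons, because several of them are textbook HIF-1 targets. Pkm, with the largest rise of a glycolytic enzyme gene in CK-p25, is shown as 1 of the windows without the searched letters. The windows hold the 250 bases before the most upstream listed start, from RefSeq on GRCm38.p6, written 5′ to 3′ on the gene's strand. Capitals mark ACGTG, the core of the HIF response element, and the related GCGTG, on either strand, where CACGTG reads as ACGTG on both strands.
Ldha, chr7:46845554-46845803, plus strand: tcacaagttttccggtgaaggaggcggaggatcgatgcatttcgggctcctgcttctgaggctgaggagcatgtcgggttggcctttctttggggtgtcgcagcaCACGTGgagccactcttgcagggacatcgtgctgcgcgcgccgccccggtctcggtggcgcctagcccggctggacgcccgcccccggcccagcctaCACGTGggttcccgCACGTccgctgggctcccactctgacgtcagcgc
Pgk1, chrX:106186850-106187099, plus strand: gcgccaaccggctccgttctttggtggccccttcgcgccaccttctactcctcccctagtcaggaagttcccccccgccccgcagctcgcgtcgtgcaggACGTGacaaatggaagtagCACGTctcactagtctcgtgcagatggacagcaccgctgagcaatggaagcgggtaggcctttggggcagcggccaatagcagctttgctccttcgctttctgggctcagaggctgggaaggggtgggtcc
Egln3, chr12:54203875-54204124, minus strand: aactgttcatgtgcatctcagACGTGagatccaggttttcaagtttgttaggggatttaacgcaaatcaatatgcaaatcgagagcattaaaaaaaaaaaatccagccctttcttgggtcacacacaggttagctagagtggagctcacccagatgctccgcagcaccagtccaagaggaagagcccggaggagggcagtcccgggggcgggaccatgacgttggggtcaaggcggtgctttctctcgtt
P4ha2, chr11:54100674-54100923, plus strand: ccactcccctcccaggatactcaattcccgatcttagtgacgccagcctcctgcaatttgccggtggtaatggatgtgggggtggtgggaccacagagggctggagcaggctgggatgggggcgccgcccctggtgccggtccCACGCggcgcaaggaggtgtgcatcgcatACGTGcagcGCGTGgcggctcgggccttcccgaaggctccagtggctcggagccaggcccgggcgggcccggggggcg
Pkm, chr9:59656326-59656575, plus strand: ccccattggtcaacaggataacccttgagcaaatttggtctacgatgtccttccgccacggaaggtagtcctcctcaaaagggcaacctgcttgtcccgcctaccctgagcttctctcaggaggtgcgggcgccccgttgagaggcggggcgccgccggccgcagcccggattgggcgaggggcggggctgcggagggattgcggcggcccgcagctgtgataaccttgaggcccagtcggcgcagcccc
The Ldha window holds 5 ACGTG matches, of which 4 come from a pair of CACGTG letters read on both strands, Pgk1 holds 2, and Egln3 holds 1, near the far end of the window. P4ha2 holds 1 ACGTG and 2 GCGTG, and Pkm has neither. Neither was found for Gpi1, Aldoa and Tpi1, which also rose in CK-p25, nor for Hk1 and Eno2, which did not. Hk2, which did not rise in CK-p25, holds 2 ACGTG.

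Promoter entries were found for 36 of the 38 genes, all but Slc2a3 and Ndrg1. ACGTG was present in 17 of the 36 windows (47.2%), against 22.6% of 8568 promoters of genes tested at 4.5 months and 16.5% of all 27025 promoters of the table. GCGTG was present in 21 (58.3%), against 46.5% and 28.3%, and either of these in 30 (83.3%), against 58.1% and 38.6%. The letters GAGGAAGT, a core bound by PU.1, were in none of the 36 windows and in 2.74% and 2.42% of the other promoters. A match describes letters in a window, not a bound site.

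**Figure D1:**
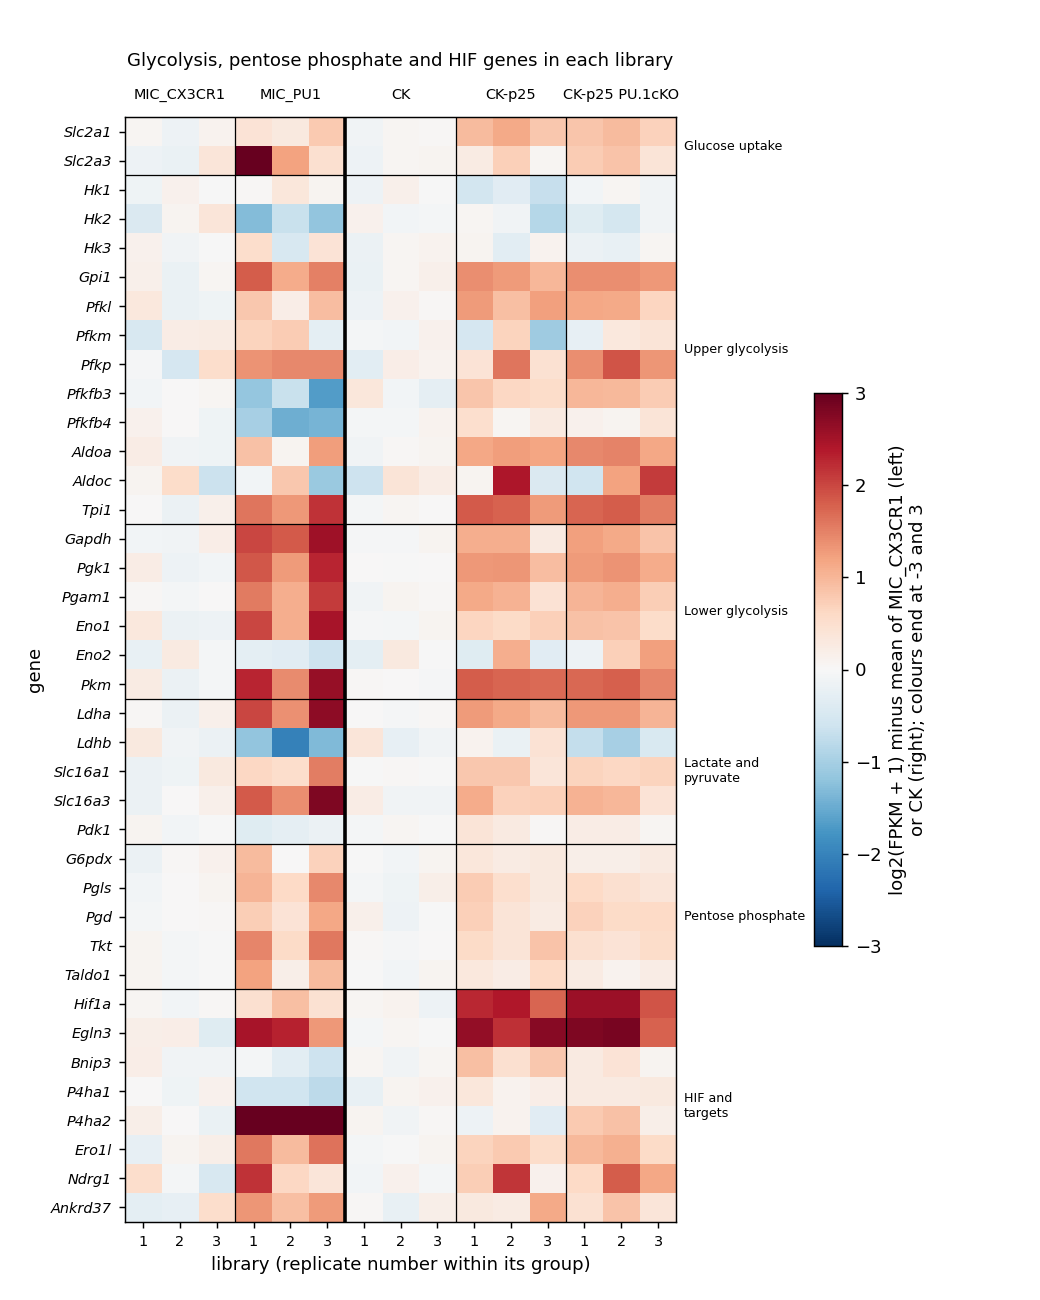
Level of each of the 38 genes in each of the 15 libraries, as log2(FPKM + 1) minus the mean of MIC_CX3CR1 (6 columns on the left) or CK (9 columns on the right), ordered by role. Most rows of lower glycolysis are red in MIC_PU1, CK-p25 and CK-p25 PU.1cKO, Ldhb is blue in MIC_PU1 and CK-p25 PU.1cKO, and Aldoc, Eno2 and Ndrg1 are uneven within groups.

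The comparison of CK-p25 with CK asks how microglia differ when forebrain neurons degenerate. Genes from every role rose, led by Egln3, Hif1a, Pkm and Tpi1, while the hexokinases, which start the pathway, did not rise and Hk1 fell. Of the 37 genes whose mean over the 9 libraries reached 1 FPKM, 23 were higher in CK-p25 and 1 was lower at an adjusted p under 0.05 (limma, Benjamini-Hochberg over all genes tested, two-sided), where 17.6% of all 10894 genes tested were higher and 13.7% lower. The median difference was 0.66 over the 37 genes and -3e-04 over all genes, on the log2(FPKM + 1) scale used for every difference below, on which genes near 0 FPKM show too small a change. Under quantile normalization the higher share of all calls went from 56.3% to 45.6%, and 18 of the 37 genes were higher and 1 lower. In CK-p25 PU.1cKO against CK, 22 genes were higher and 1 was lower, with 17.8% and 13.3% of all genes called, a median of 0.76 over the 37 genes, and a higher share of all calls that went from 57.2% to 45.9% under quantile normalization. Both comparisons use the same 3 CK libraries, so their values are given side by side and are not independent. The filter left out P4ha2, which lay between 0 and 1.33 FPKM in all 9 libraries.

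Slc2a1, the main glucose transporter of most cells, measured 34.7, 38.7 and 38.3 FPKM in CK, against 73.2, 83.2 and 66.1 in CK-p25 and 67.5, 72.8 and 61.1 in the knockout. Every CK-p25 and knockout library was above every CK library, by 0.97 ± 0.11 (adjusted p = 0.0004) and 0.83 ± 0.11 (adjusted p = 0.000837). Slc2a3, a high-affinity transporter typical of neurons and leukocytes, was far lower, at 2.46, 3.00 and 3.08 FPKM in CK, against 3.55, 5.27 and 2.98 in CK-p25 and 5.54, 5.97 and 4.04 in the knockout. Only the knockout libraries were clear of CK, by 0.68 ± 0.20 (adjusted p = 0.0308), against 0.34 ± 0.20 in CK-p25 (adjusted p = 0.228). That call was lost when any 1 CK library, or knockout replicate 1 or 2, was left out, and with no filter on low values (adjusted p from 0.0617 to 0.108). Slc2a1 made up 92.9% ± 0.4 (SD, n = 3) of the summed level of the pair in CK and 95% ± 0.9 in CK-p25.

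Hexokinase phosphorylates glucose and so commits it to the cell. Hk1, the housekeeping form, measured 11.5, 14.5 and 12.7 FPKM in CK, against 8.46, 9.95 and 7.52 in CK-p25 and 12.1, 13.4 and 11.8 in the knockout. The CK-p25 libraries were the lowest, with no overlap with CK or with the knockout. The fall against CK was 0.53 on the log2 scale (-0.53 ± 0.12, adjusted p = 0.0117), lost without CK replicate 2 (adjusted p = 0.0505), while the knockout differed from CK by -0.04 ± 0.12 (adjusted p = 0.826). Hk2, the inducible form, measured 40.4, 34.8 and 34.8 FPKM in CK, against 38.4, 33.7 and 19.8 in CK-p25 and 28.1, 24.9 and 33.9 in the knockout. All knockout libraries lay below CK, but neither difference passed (-0.30 ± 0.23, adjusted p = 0.352, and -0.34 ± 0.23, adjusted p = 0.304). Hk3, the form of myeloid cells, was at 35.0, 41.1 and 42.6 FPKM in CK, against 42.0, 31.6 and 42.3 in CK-p25 and 34.7, 33.7 and 41.1 in the knockout, with all groups overlapping (-0.04 ± 0.14 and -0.12 ± 0.14, adjusted p = 0.852 and 0.576). Of the summed hexokinase level, Hk3 made up 44.4% ± 3.6, Hk2 41.2% ± 4.5 and Hk1 14.4% ± 1.4 in CK (SD, n = 3).

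Gpi1, which turns glucose 6-phosphate into fructose 6-phosphate, measured 24.9, 29.9 and 32.2 FPKM in CK, against 77.9, 71.9 and 58.1 in CK-p25 and 77.9, 77.6 and 73.0 in the knockout. Its lowest CK-p25 library was still well above the highest CK library, and the differences were 1.23 ± 0.13 (adjusted p = 0.000326) and 1.37 ± 0.13 (adjusted p = 0.000182). Phosphofructokinase, the main control point of the pathway, has 3 genes. Pfkl, the liver form, measured 30.0, 36.4 and 34.3 FPKM in CK, against 82.1, 63.5 and 80.1 in CK-p25 and 76.2, 74.3 and 52.7 in the knockout. It rose by 1.14 ± 0.16 (adjusted p = 0.00142) and 0.98 ± 0.16 (adjusted p = 0.00287) and made up 90.4% of the family in CK, 93.6% in CK-p25 and 89.8% in the knockout, with CK-p25 replicate 2 at 87.1%. Pfkp, the platelet form, was near the floor of the table in CK at 0.421, 1.05 and 0.926 FPKM, and measured 1.37, 4.37 and 1.44 in CK-p25 and 3.68, 5.59 and 3.48 in the knockout. All libraries of both p25 groups were above CK, by 0.82 ± 0.34 (adjusted p = 0.0987) and 1.54 ± 0.34 (adjusted p = 0.00932), so only the second passed, and the 2 groups overlapped. The first passed with the replicate number as a block (adjusted p = 0.0367). Pfkm, the muscle form, measured 2.63, 2.60 and 3.15 FPKM in CK, against 1.68, 5.05 and 0.796 in CK-p25 and 2.18, 3.70 and 3.95 in the knockout, scattered across the CK range in both groups (-0.30 ± 0.40 and 0.15 ± 0.40, adjusted p = 0.606 and 0.81).

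Pfkfb3 makes fructose 2,6-bisphosphate, the strongest activator of phosphofructokinase. It measured 30.2, 22.2 and 19.3 FPKM in CK, against 42.5, 36.5 and 34.6 in CK-p25 and 47.8, 47.1 and 40.4 in the knockout. The p25 groups lay above CK without overlap, by 0.66 ± 0.16 (adjusted p = 0.0161) and 0.91 ± 0.16 (adjusted p = 0.00376). The first call was lost without CK replicate 2, CK replicate 3 or CK-p25 replicate 1 (adjusted p from 0.0518 to 0.0594). Pfkfb4, a second enzyme of that kind, ranged from 25.5 to 38.2 FPKM over the 9 libraries and did not pass in either comparison.

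Aldolase splits the 6-carbon sugar. Aldoa measured 197, 216 and 225 FPKM in CK, against 472, 506 and 481 in CK-p25 and 578, 599.8 and 472 in the knockout, a rise of 1.19 ± 0.11 (adjusted p = 0.000139) and 1.36 ± 0.11 (adjusted p = 7.22e-05). Tpi1, which interconverts the products, measured 63.2, 67.9 and 65.7 FPKM in CK, against 236.5, 226 and 160.4 in CK-p25 and 221, 234 and 192 in the knockout. It rose by 1.63 ± 0.15 (adjusted p = 0.00016) and 1.70 ± 0.15 (adjusted p = 0.000126), which among glycolytic enzyme genes was second to Pkm in CK-p25 and the largest in the knockout, and CK-p25 replicate 3 was the lowest library of its group. Without that library the difference was 1.80.

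**Figure D2:**
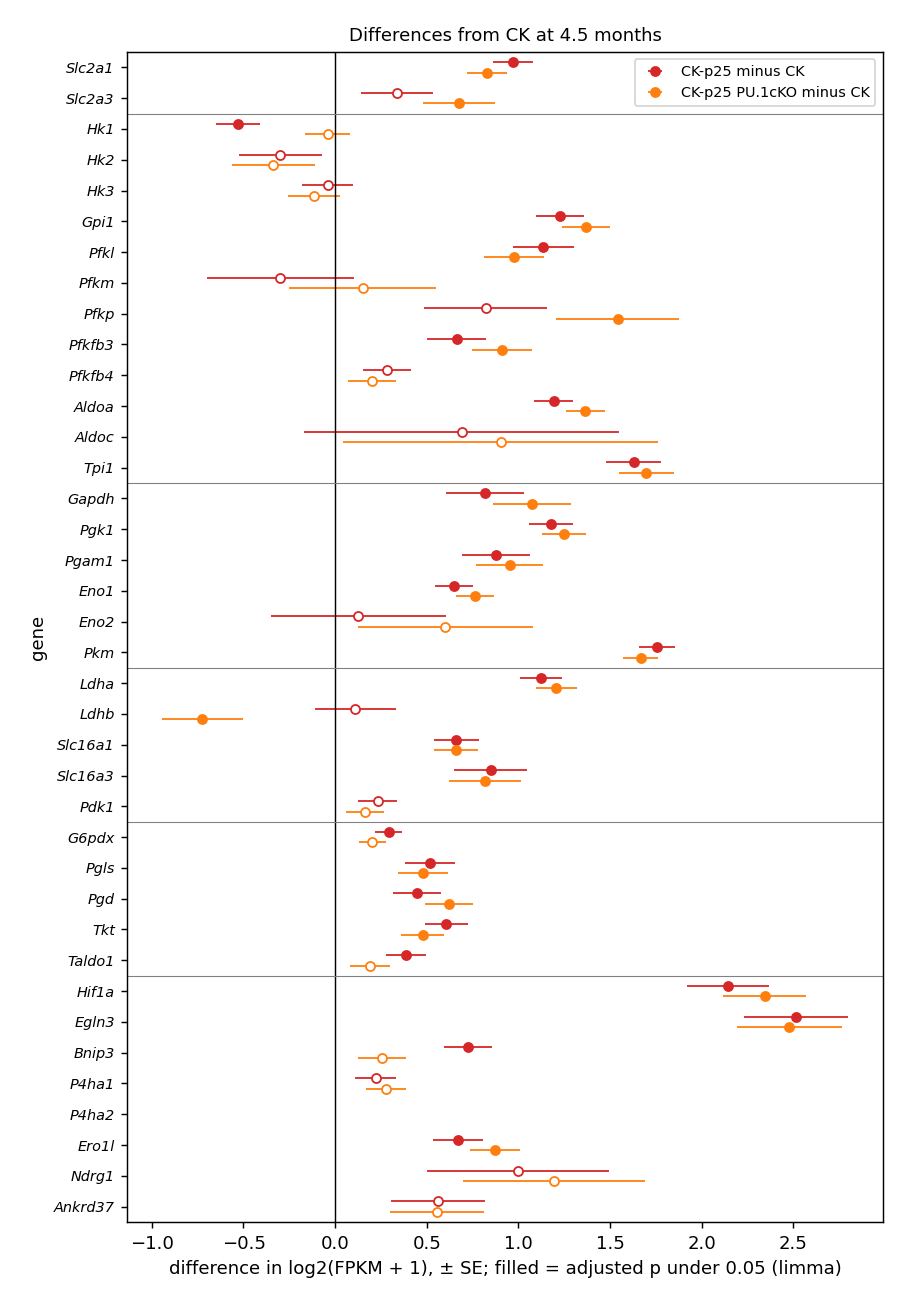
Difference from CK of each of the 37 genes tested at 4.5 months, in log2(FPKM + 1) with its SE, for CK-p25 (red) and CK-p25 PU.1cKO (orange), 3 libraries a group, with filled points for an adjusted p under 0.05. Egln3 and Hif1a lie farthest right, at 2.51 and 2.14 in CK-p25, Hk1 is filled on the left in CK-p25 and Ldhb in CK-p25 PU.1cKO, and P4ha2 was not tested.

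In the lower part of glycolysis, from Gapdh to Pkm, 5 of 6 genes were higher in both p25 groups and none was lower. Gapdh, which makes the NADH of the pathway, measured 187, 185 and 200.4 FPKM in CK, against 404, 409.9 and 231 in CK-p25 and 447, 420.1 and 348 in the knockout. All libraries of the p25 groups were above CK (0.82 ± 0.21, adjusted p = 0.0212, and 1.07 ± 0.21, adjusted p = 0.0064), and CK-p25 replicate 3 was only just so. The difference was 1.09 without that library, and the call in CK-p25 was lost under quantile normalization (adjusted p = 0.136) and without CK-p25 replicate 1 or 2 or any 1 CK library (adjusted p from 0.0526 to 0.067). Pgk1, the first enzyme of the pathway to yield ATP, measured 46.1, 45.6 and 46.6 FPKM in CK, against 115, 117 and 88.2 in CK-p25 and 114, 119 and 100.5 in the knockout, with little spread in CK and a rise of 1.18 ± 0.12 (adjusted p = 0.000257) and 1.25 ± 0.12 (adjusted p = 0.000184). Its promoter is among those printed above.

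Pgam1, which moves the phosphate of 3-phosphoglycerate, measured 90.1, 104 and 99.3 FPKM in CK, against 216, 204 and 133 in CK-p25 and 198, 209 and 165 in the knockout. The groups were separate, by 0.88 ± 0.18 (adjusted p = 0.00829) and 0.95 ± 0.18 (adjusted p = 0.0056). Eno1, the ubiquitous enolase, measured 127, 125 and 137 FPKM in CK, against 204, 193 and 215 in CK-p25 and 238, 237 and 190.2 in the knockout, a smaller rise of 0.65 ± 0.10 (adjusted p = 0.00234) and 0.76 ± 0.10 (adjusted p = 0.00107). Pkm, the pyruvate kinase gene of most tissues, measured 148.5, 147 and 142 FPKM in CK, against 516, 495 and 474 in CK-p25 and 487, 509.5 and 406 in the knockout. It rose by 1.76 ± 0.10 (adjusted p = 1.75e-05) and 1.67 ± 0.10 (adjusted p = 2.05e-05), and its CK-p25 libraries, CK-p25 replicate 3 included, lay close together. The tables give 1 value per gene, so the M1 and M2 splice forms of Pkm were not separated. Gapdh, Pgk1, Pgam1, Eno1, Tpi1, Aldoa, Ldha and Pkm have near-identical processed copies elsewhere in the mouse genome, and the counting could split reads between them, so their values are uncertain.

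The summed level of 16 glycolytic enzyme genes, from the hexokinases to Pkm without the Pfkfb genes, was 1063 ± 43.2 FPKM in CK (SD, n = 3), 2305 ± 260.2 in CK-p25 and 2437 ± 229.7 in the knockout. As a share of all FPKM this was 0.217% ± 0.013, 0.379% ± 0.063 and 0.426% ± 0.049, with the p25 groups above CK in every library. The summed level of all 38 genes was 2308 ± 79.4, 4217 ± 275.8 and 4158 ± 314.3 FPKM, or 0.471%, 0.692% and 0.727% of all FPKM.

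Lactate dehydrogenase interconverts pyruvate and lactate, and its A subunit is known to favour lactate formation. Ldha measured 189, 181 and 190.3 FPKM in CK, against 456, 413.5 and 359 in CK-p25 and 458, 461 and 382 in the knockout. The p25 groups were separate from CK and overlapped each other, with rises of 1.12 ± 0.11 (adjusted p = 0.000239) and 1.21 ± 0.11 (adjusted p = 0.000161). Ldhb, the B subunit, measured 567.5, 371 and 407 FPKM in CK, against 475, 382 and 594 in CK-p25 and 268, 219 and 321.5 in the knockout. CK-p25 overlapped CK (0.11 ± 0.22, adjusted p = 0.739), while every knockout library was below every library of the other groups. The fall against CK was 0.72 on the log2 scale (-0.72 ± 0.22, adjusted p = 0.0382). It did not pass with no filter on low values (adjusted p = 0.0669) or without CK replicate 1 or 3, CK-p25 replicate 1, or knockout replicate 1 or 2 (adjusted p from 0.0556 to 0.127), and the difference without CK replicate 1 was -0.54.

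Ldha made up 25%, 32.8% and 31.9% of the summed Ldha and Ldhb level in the CK libraries, 49%, 52% and 37.7% in CK-p25 and 63.1%, 67.8% and 54.3% in the knockout. The 3 groups did not overlap, and the lowest share in CK-p25 was that of replicate 3. The means differed by 16.3 percentage points between CK-p25 and CK and by 15.5 between the knockout and CK-p25 (exact permutation test of each, two-sided, p = 0.1, the smallest that 3 libraries against 3 allow). The summed level of the pair was 552 to 756 FPKM in CK, against 796 to 953 in CK-p25 and 680.4 to 726.5 in the knockout.

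**Figure D3:**
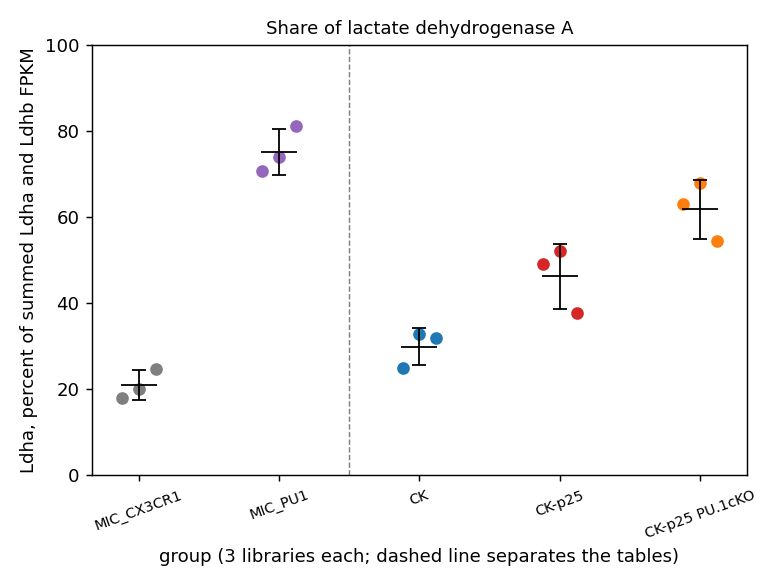
Ldha as a percent of the summed Ldha and Ldhb FPKM in each library (points), with mean and SD of 3 libraries a group (bars). The MIC_CX3CR1 mean is 20.9% and the MIC_PU1 mean 75.2%, and the means rise from 29.9% in CK to 46.2% in CK-p25 and 61.7% in the knockout with no overlap of points.

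Slc16a1 and Slc16a3 encode monocarboxylate transporters, of which the second is known for lactate export from glycolytic cells. Slc16a1 measured 10.9, 11.2 and 10.8 FPKM in CK, against 19.9, 20.1 and 14.4 in CK-p25 and 18.0, 17.5 and 18.2 in the knockout. Slc16a3 was higher, at 31.3, 24.8 and 24.7 FPKM in CK, against 59.5, 44.2 and 44.7 in CK-p25 and 56.4, 54.5 and 35.9 in the knockout. Both rose in both groups, Slc16a1 by 0.66 ± 0.12 in each (adjusted p = 0.00435 and 0.00432) and Slc16a3 by 0.85 ± 0.20 (adjusted p = 0.013) and 0.82 ± 0.20 (adjusted p = 0.0146). For Slc16a3 the CK-p25 call was lost without CK replicate 2 (adjusted p = 0.0504), and the knockout call without CK replicate 2 or 3 or knockout replicate 1 or 2 (adjusted p from 0.0543 to 0.0571). Slc16a3 held 70.9% ± 2.9 of the summed level of the pair in CK and 73.1% ± 3.8 in CK-p25 (SD, n = 3). Pdk1, a kinase that keeps pyruvate out of the mitochondria, ranged from 25 to 34.3 FPKM over the 9 libraries and did not pass.

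All 5 genes of the pentose phosphate pathway were higher in CK-p25 than in CK, with a median difference of 0.45, beside 0.68 over the 12 upper and 0.85 over the 6 lower glycolytic genes. Whether these groups of genes differ was not tested. Pgls, which opens the lactone made in the first step, measured 32.4, 30.7 and 37.9 FPKM in CK, against 57.4, 47.8 and 41.1 in CK-p25 and 51.4, 46.8 and 43.7 in the knockout (0.52 ± 0.14, adjusted p = 0.0219, and 0.48 ± 0.14, adjusted p = 0.0283). Pgd, the second enzyme that yields NADPH, measured 63.3, 51.2 and 56.0 FPKM in CK, against 93.2, 74.7 and 66.8 in CK-p25 and 92.4, 84.9 and 85.8 in the knockout (0.45 ± 0.13, adjusted p = 0.0339, and 0.62 ± 0.13, adjusted p = 0.00826). For both genes the groups were separate from CK, with the third CK-p25 library nearest to it. Tkt and Taldo1 link the pathway back to glycolysis. Tkt measured 34.5, 33.2 and 33.9 FPKM in CK, against 51.0, 44.5 and 62.3 in CK-p25 and 47.4, 45.3 and 50.1 in the knockout (0.61 ± 0.12, adjusted p = 0.0057, and 0.48 ± 0.12, adjusted p = 0.016). Taldo1 measured 105, 99.2 and 112 FPKM in CK, against 132, 124 and 160.4 in CK-p25 and 125.5, 113 and 123 in the knockout, and passed only in CK-p25 (0.39 ± 0.11, adjusted p = 0.0287, against 0.19 ± 0.11, adjusted p = 0.225). For both genes CK-p25 replicate 3 was the highest library of its group. G6pdx, the rate-limiting enzyme, ranged from 36.2 to 40.5 FPKM in CK and from 43.0 to 48.5 in the p25 groups. In the full fit it also passed only in CK-p25 (0.29 ± 0.07, adjusted p = 0.0181, against 0.20 ± 0.07, adjusted p = 0.0713). Its knockout difference passed with only the compared libraries (adjusted p = 0.0435) and without CK-p25 replicate 3 (adjusted p = 0.0364).

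These differences were small, and of the 5 calls in CK-p25 only that of Tkt was kept under quantile normalization, where the adjusted p was 0.149 for G6pdx, 0.0602 for Pgls, 0.14 for Pgd and 0.295 for Taldo1. The same 4 calls were lost when only the CK and CK-p25 libraries were fitted (adjusted p from 0.0503 to 0.0808). In that fit 19 of the 37 genes were higher, and 1542 of all genes, against 1922 of all genes in the full fit. The calls of G6pdx, Pgls and Taldo1 were lost without CK replicate 1 or 2, with CK-p25 replicate 1 also mattering for the first pair (adjusted p from 0.0531 to 0.102). That of Pgd was lost without CK replicate 2 or 3, CK-p25 replicate 1 or 2 or any 1 knockout library (adjusted p from 0.0506 to 0.118). In the knockout comparison Tkt was lost without CK replicate 2 or 3 or knockout replicate 3 (adjusted p from 0.0511 to 0.0563), and Pgls without CK replicate 1 or 2 or knockout replicate 1 or 2 (adjusted p from 0.0746 to 0.101) and under quantile normalization (adjusted p = 0.0579). The summed level of the 5 genes was 268 ± 15.7 FPKM in CK (SD, n = 3), 365.5 ± 25.3 in CK-p25 and 347 ± 13.3 in the knockout. As a share of all FPKM the rise was smaller, from 0.0547% ± 0.00207 to 0.0597% ± 0.00225 and 0.0606% ± 0.000655. All genes together summed to 475007 to 500482 FPKM in the CK libraries and to 545930 to 650063 in those of the p25 groups.

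Hif1a and Egln3 had the largest differences of the 37 genes. Hif1a measured 46.6, 48.3 and 39.9 FPKM in CK, against 219, 242.5 and 153 in CK-p25 and 269, 272 and 169 in the knockout. Every library of both p25 groups was far above every CK library, with differences of 2.14 ± 0.23 (adjusted p = 0.000307) and 2.34 ± 0.23 (adjusted p = 0.000186), or 4.56-fold and 5.27-fold in mean FPKM. Egln3, a prolyl hydroxylase that acts on HIF-1 alpha and is itself a HIF target, was near the floor in CK at 0.466, 0.583 and 0.499 FPKM. It measured 8.35, 5.91 and 9.03 FPKM in CK-p25 and 9.59, 9.98 and 4.17 in the knockout. The rise was 2.51 ± 0.29 (adjusted p = 0.000448) and 2.48 ± 0.29 (adjusted p = 0.000481), or 15-fold and 15.3-fold in mean FPKM. In the knockout group, replicate 3 was the lowest library for Hif1a and Egln3, and also for Pkm, Pgk1, Ldha and Slc16a3.

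Bnip3, a mitochondrial protein that promotes mitophagy, measured 42.0, 37.5 and 41.8 FPKM in CK, against 76.1, 56.5 and 71.4 in CK-p25 and 48.7, 53.9 and 42.9 in the knockout. CK-p25 was the highest group without overlap, by 0.73 ± 0.13 over CK (adjusted p = 0.00404), while the knockout lay just above CK (0.25 ± 0.13, adjusted p = 0.183). Ero1l, an oxidase of the endoplasmic reticulum now named Ero1a, measured 6.37, 6.70 and 7.14 FPKM in CK, against 11.3, 12.3 and 10.4 in CK-p25 and 14.2, 15.2 and 10.5 in the knockout (0.67 ± 0.14, adjusted p = 0.00701, and 0.87 ± 0.14, adjusted p = 0.002), with both groups clear of CK. P4ha1, a collagen prolyl hydroxylase, ranged from 77.1 to 114.6 FPKM and Ankrd37 from 1.78 to 6.03 over the 9 libraries. Neither passed in the full fit. The knockout difference of Ankrd37 from CK passed with only the compared libraries (0.56, adjusted p = 0.0414) and without CK-p25 replicate 3 (adjusted p = 0.0274).

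**Figure D4:**
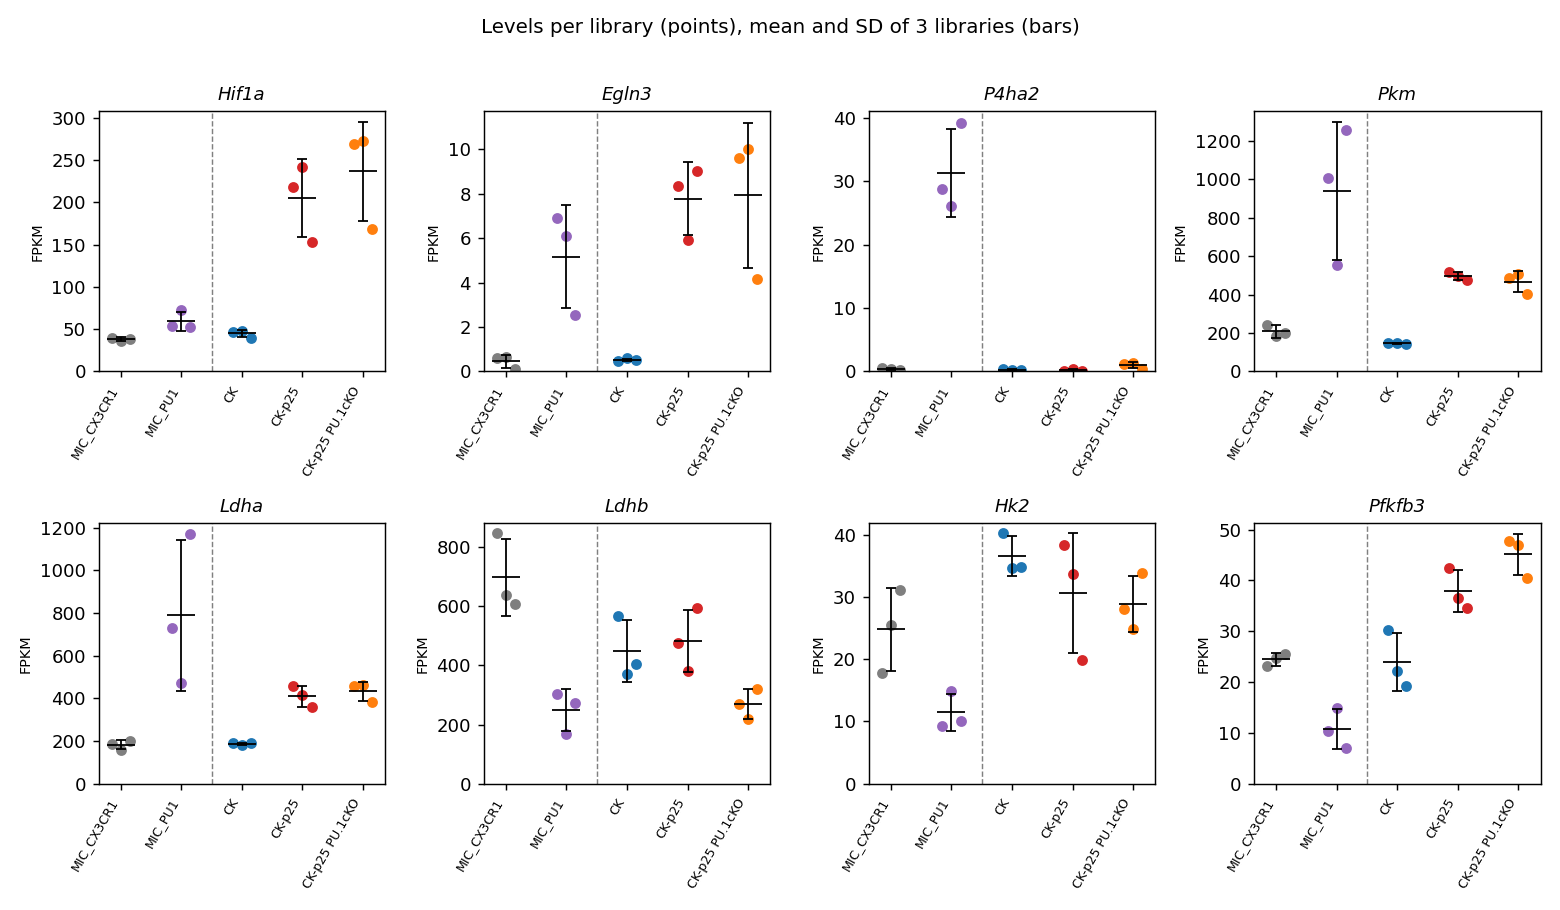
FPKM per library (points) with mean and SD of 3 libraries a group (bars) for 8 of the genes, with a dashed line between the 3-month and the 4.5-month table. Hif1a is 39.9 to 48.3 FPKM in CK and at least 153 in every p25 library, P4ha2 is at least 26.04 FPKM in MIC_PU1 and at most 1.33 at 4.5 months, and Ldhb is lowest in MIC_PU1 and CK-p25 PU.1cKO within their tables.

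Aldoc, Eno2 and Ndrg1 were uneven within the p25 groups. Aldoc, the aldolase typical of astrocytes, measured 11.4, 24.0 and 21.3 FPKM in CK, against 19.2, 101.6 and 13.0 in CK-p25 and 11.5, 43.1 and 80.9 in the knockout (0.69 ± 0.86, adjusted p = 0.577, and 0.90 ± 0.86, adjusted p = 0.47). Eno2, the neuronal enolase, measured 0.323, 1.00 and 0.614 FPKM in CK, against 0.26, 2.46 and 0.276 in CK-p25 and 0.468, 1.67 and 2.80 in the knockout (0.13 ± 0.48, adjusted p = 0.869, and 0.60 ± 0.48, adjusted p = 0.384). Ndrg1, a HIF target that is also abundant in oligodendrocytes, ranged from 1.03 to 1.35 FPKM in CK, from 1.32 to 8.42 in CK-p25 and from 2.23 to 6.54 in the knockout. All its knockout libraries lay above CK (0.99 ± 0.50, adjusted p = 0.164 in CK-p25, and 1.19 ± 0.50, adjusted p = 0.105 in the knockout), and the knockout difference passed without CK-p25 replicate 2 or 3 (adjusted p = 0.0251 and 0.0494) and when only the compared libraries were fitted (adjusted p = 0.0203). For all 3 genes the high libraries were CK-p25 replicate 2 and knockout replicates 2 and 3. The summed level of 6 astrocyte markers was 298, 184 and 185 FPKM in those 3 libraries and 47.2 to 105 in the other 6, and that of 6 neuronal markers was 15.6, 10.1 and 19.4 against 1.27 to 8.61. None of the astrocyte, neuronal or oligodendrocyte markers was at 0 in all libraries of a group, and the part of such RNA in the result was not tested. Pfkm and Pfkp were also highest of their group in CK-p25 replicate 2. Without it the CK-p25 difference was -0.18 for Aldoc, 0.42 for Ndrg1 and 0.43 for Pfkp, while it was 2.01 for Hif1a and 1.75 for Pkm.

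Leaving out CK-p25 replicate 3 keeps only libraries whose description label starts 160706 in the fit. In that fit 25 genes of the list were higher and 1 lower in CK-p25 than in CK, the 23 of the full fit among them. Hif1a differed by 2.34 and Pkm by 1.79. The calls over all genes rose too, to 2360 higher and 2162 lower, against 1922 and 1490 in the full fit. The added calls of the list were Pdk1 (0.33, adjusted p = 0.0151) and Ndrg1 (1.43, adjusted p = 0.0427).

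The comparison of CK-p25 PU.1cKO with CK-p25 sets mice with the floxed Spi1 alleles against mice without them, under neurodegeneration. Spi1 itself had a mean of 180.3 FPKM in the knockout and 252.4 in CK-p25, with overlapping libraries, and did not pass. How far PU.1 was lost is thus not shown here. None of the 37 genes passed in either direction, and neither did any of the 10894 genes tested (0% higher and 0% lower), with a smallest adjusted p among the 37 of 0.745. At an unadjusted p under 0.05 (limma), Hk1 was higher and Ldhb and Bnip3 were lower, and these were also the genes whose groups did not overlap. Over all genes 2.7% were higher and 3.46% lower at that unadjusted p, and 4.82% and 4.56% were higher and lower without overlap, so 3 of 37 is near the background. Hk1 differed by 0.49 ± 0.12 (unadjusted p = 0.0035), Ldhb by -0.83 ± 0.22 (unadjusted p = 0.00518) and Bnip3 by -0.47 ± 0.13 (unadjusted p = 0.00647). The differences ran from -0.83 (Ldhb) to 0.72 (Pfkp), with a median of 0.07, and 35 of the 37 (94.6%) lay within 0.5 of 0, against 92.6% of all genes. A 95% interval extended 0.31 to either side in the median gene. For Pkm the interval was -0.31 to 0.13 and for Ldha -0.17 to 0.34, while for Hif1a it was -0.32 to 0.72 and for Aldoc -1.76 to 2.18. Without CK-p25 replicate 3, again no gene of the list passed, and the Ldhb difference was -0.68.

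At 3 months, MIC_PU1 libraries were set against MIC_CX3CR1 libraries in a table made separately. P4ha2, the lower glycolytic genes, Ldha, Slc16a3 and Egln3 were far higher in MIC_PU1, and Ldhb, Hk2, Pfkfb3, Pfkfb4 and P4ha1 were lower. Of 37 genes tested (Eno2 was at or under 0.843 FPKM in all 6 libraries and was left out), 18 were higher and 5 lower, where 17.8% of all 10845 genes tested were higher and 12.4% lower. The median was 0.89 over the 37 genes and 0.03 over all. The share of higher calls over all genes was 58.9%, against 49% with median centring and 47% with quantile normalization, under which 18 genes of the list were higher and 6 lower. By the sample titles, these would be differences of the wild type from the PU.1 deletion.

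P4ha2, the second collagen prolyl hydroxylase and a HIF target, had the smallest p of the list. It measured 0.61, 0.437 and 0.246 FPKM in MIC_CX3CR1 and 28.7, 26.04 and 39.1 in MIC_PU1, a difference of 4.48 ± 0.22 (adjusted p = 7.66e-05), or 72.7-fold in mean FPKM. No MIC_PU1 library was near the other group, and at 4.5 months P4ha2 measured 0.334, 0.168 and 0.297 FPKM in CK, against 0.14, 0.35 and 0 in CK-p25 and 1.19, 1.33 and 0.435 in the knockout. Every knockout library there was above every library of the other groups, but at levels too low to be tested. Its paralog P4ha1 fell by 0.66 on the log2 scale, from 94.3, 85.4 and 103 to 61.3, 62.1 and 53.8 FPKM (adjusted p = 0.0207).

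Gapdh measured 141, 138 and 169.8 FPKM in MIC_CX3CR1 and 596, 537 and 872 in MIC_PU1 (2.13 ± 0.23, adjusted p = 0.0011). Pkm measured 244, 182 and 198 against 1008, 552 and 1259 FPKM (2.10 ± 0.32, adjusted p = 0.00384). Ldha measured 185, 159 and 200.2 against 728, 471 and 1172 FPKM (2.02 ± 0.33, adjusted p = 0.00486). In all of these MIC_PU1 replicate 2 was the lowest of its group and still above every MIC_CX3CR1 library. Pgk1 (1.81 ± 0.28), Eno1 (1.86 ± 0.36), Pgam1 (1.58 ± 0.26), Tpi1 (1.69 ± 0.25) and Gpi1 (1.49 ± 0.22) behaved the same way, so 5 of 5 lower glycolytic genes tested were higher. The summed level of the 16 glycolytic enzyme genes was 1280 ± 133 FPKM in MIC_CX3CR1 (SD, n = 3) and 3947 ± 1340 in MIC_PU1.

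In the upper pathway Gpi1, Tpi1 and Pfkp were higher, and Hk2 and both Pfkfb genes were lower. Pfkfb4 measured 39.9, 36.8 and 33.5 FPKM in MIC_CX3CR1 and 17.8, 12.7 and 13.3 in MIC_PU1, and fell by 1.28 on the log2 scale (-1.28 ± 0.19, adjusted p = 0.00316). Pfkfb3 measured 23.1, 24.7 and 25.5 against 10.3, 14.95 and 6.97 FPKM, and Hk2 measured 17.7, 25.5 and 31.2 against 9.29, 14.9 and 10.1 FPKM. Both fell without overlap (-1.17 ± 0.26, adjusted p = 0.0149, and -1.04 ± 0.26, adjusted p = 0.0238), in calls that were lost without MIC_CX3CR1 replicate 2 or 3 and, for Hk2, also without MIC_PU1 replicate 1 or 3 (adjusted p from 0.058 to 0.0871). Slc2a1, Hk1, Hk3, Pfkl, Pfkm and Aldoa did not pass, with differences from 0.15 to 0.74, although all 3 MIC_PU1 libraries were above MIC_CX3CR1 for Slc2a1. Without MIC_PU1 replicate 2, Slc2a1 (0.60, adjusted p = 0.0372), Hk3 (0.46, adjusted p = 0.0494), Pfkl (0.86, adjusted p = 0.014) and Aldoa (1.07, adjusted p = 0.00685) passed as higher. Pfkp was higher, at 5.63, 6.10 and 6.14 FPKM against 1.55, 0.861 and 2.80 (1.41 ± 0.29, adjusted p = 0.0111).

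Ldhb was the gene of the list with the strongest fall, from 849, 638 and 609 FPKM in MIC_CX3CR1 to 302.5, 167.5 and 274 in MIC_PU1 (-1.52 ± 0.27, adjusted p = 0.00715). The Ldha share of the pair was 17.9%, 20% and 24.7% in MIC_CX3CR1 and 70.6%, 73.8% and 81% in MIC_PU1, 54.3 percentage points apart (exact permutation test, two-sided, p = 0.1, the smallest possible), while the summed level of the pair overlapped between the groups, at 798 to 1034 and 638 to 1446 FPKM. Slc16a3 measured 20.9, 24.0 and 26.6 against 86.7, 64.2 and 169.7 FPKM (2.01 ± 0.34, adjusted p = 0.00575). Slc16a1 did not pass in the full fit. It passed with the other pseudocount, the filter at 5 FPKM, the replicate block and without MIC_PU1 replicate 2 (adjusted p from 0.0229 to 0.0499). Of the pentose phosphate genes, Tkt (1.20 ± 0.27), Pgls (1.02 ± 0.23) and Pgd (0.77 ± 0.21) were higher. G6pdx (0.55 ± 0.26) and Taldo1 (0.78 ± 0.28) did not pass in the full fit. Without MIC_PU1 replicate 2 both passed (adjusted p = 0.0107 and 0.0032), and Taldo1 also with the replicate block (adjusted p = 0.0487).

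Of the HIF genes, Egln3 measured 0.614, 0.644 and 0.103 FPKM in MIC_CX3CR1 and 6.88, 6.09 and 2.52 in MIC_PU1 (2.02 ± 0.37, adjusted p = 0.00726), and Ero1l (1.39 ± 0.24) and Ankrd37 (1.16 ± 0.28) were also higher. Hif1a itself measured 39.7, 35.7 and 38.9 against 53.4, 72.6 and 52.4 FPKM, a separate but smaller difference of 0.61 ± 0.18 (adjusted p = 0.0414). That call was lost with median centring, under quantile normalization (0.39), with the replicate number as a block, and without MIC_PU1 replicate 1 or any 1 MIC_CX3CR1 library (adjusted p from 0.0593 to 0.227). Bnip3 did not pass (-0.33 ± 0.20). Ankrd37, P4ha1, Pgls, Pgd and Tkt also lost their calls without single libraries, with adjusted p from 0.0516 to 0.105: MIC_PU1 replicate 1 and MIC_CX3CR1 replicate 2 for all 5, and MIC_CX3CR1 replicates 1 and 3 and MIC_PU1 replicate 3 for some of them.

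Neutrophil genes set MIC_PU1 replicate 1 apart, where S100a8 alone was at 4831 FPKM against 36.3 and 55.1 in its group. Slc2a3 was also highest there, at 22.2 FPKM against 5.50 and 2.91, and Ndrg1 at 6.16 against 1.47 and 1.05. Neither gene passed in the full fit, and Slc2a3 passed without MIC_PU1 replicate 3 (2.13, adjusted p = 0.0357). Without MIC_PU1 replicate 1, 13 genes of the list were higher and 3 lower. In that fit P4ha2 was at 4.53, Gapdh at 2.19, Pkm at 2.01, Ldha at 2.03 and Ldhb at -1.69. Of all genes, 1279 were higher and 805 lower in that fit, against 1925 and 1344 in the full fit. Without MIC_PU1 replicate 2, the library with the most border macrophage RNA, 25 genes of the list were higher and 5 lower, with Pkm at 2.44 and Ldhb at -1.26. The calls over all genes rose too, to 2721 higher and 2010 lower.

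**Figure D5:**
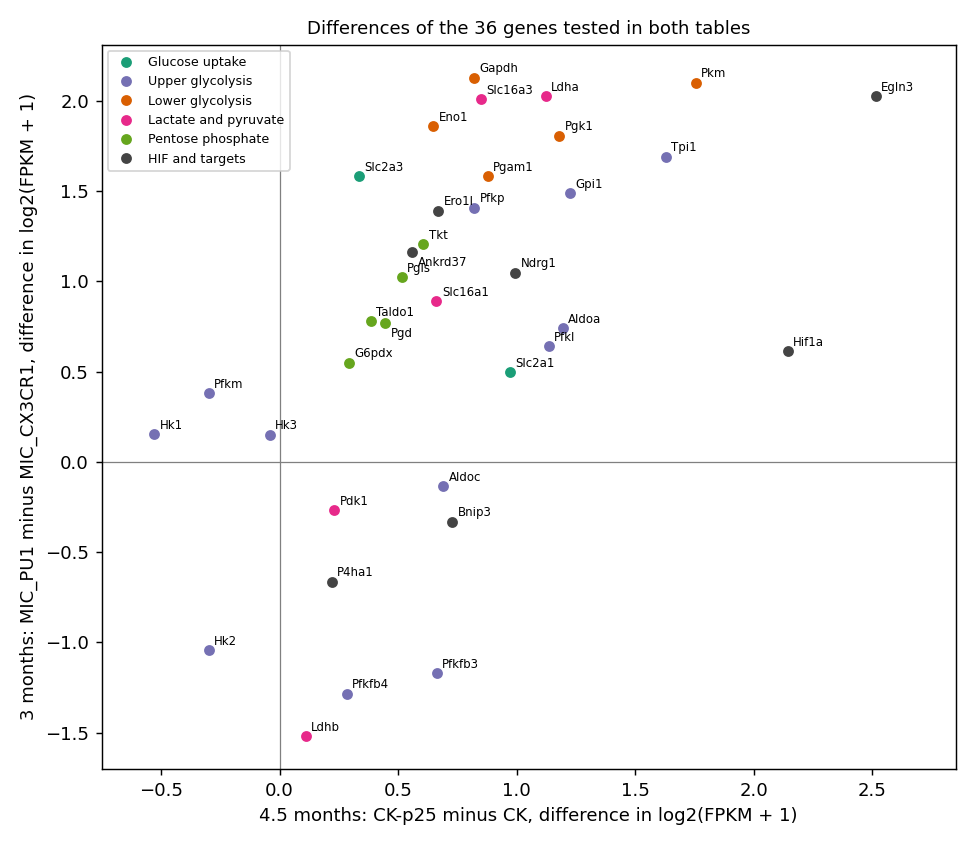
Log2 difference of each of the 36 genes tested in both tables, CK-p25 minus CK at 4.5 months on the horizontal axis and MIC_PU1 minus MIC_CX3CR1 at 3 months on the vertical axis, coloured by role. Lower glycolysis lies at the upper right, Hif1a is at 2.14 and 0.61, and Pfkfb3 is at 0.66 and -1.17.

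The CK-p25 and 3-month comparisons share no library. Of the 36 genes tested in both, 15 were higher in both, which is 88.2% of the 17 of them higher at 3 months and 65.2% of the 23 higher in CK-p25. Of all 10293 genes with a test in each set, 7.32% were higher in both, which is 43.9% of those higher at 3 months and 41% of those higher in CK-p25. Pfkfb3 passed in both with opposite signs, lower in MIC_PU1 and higher in CK-p25. The order of sizes differed: Egln3 and Hif1a had the largest differences in CK-p25, while at 3 months P4ha2, Gapdh, Pkm and Egln3 did and Hif1a had the smallest difference of the 23 that passed. No test of the difference between the sets was made, since the tables were processed separately and the ages and genotypes differ.

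Of 65 other genes of the same pathways, 48 were tested in each table. In CK-p25 at 4.5 months 13 were higher and 6 lower, where 17.6% of all genes tested were higher and 13.7% lower. In CK-p25 PU.1cKO 14 were higher and 4 lower, against 17.8% and 13.3% of all genes, and the medians were 0.15 and 0.15. At 3 months 10 were higher and 3 lower, against 17.8% and 12.4% of all genes, with a median of 0.38. Whether these shares differ from those of all genes was not tested. The HIF pathway genes among them were mixed, with 5 higher and 4 lower of 19 tested in CK-p25 (median 0.17). In CK-p25 PU.1cKO 5 were higher and 3 lower of 19 (median 0.14), and at 3 months 5 and 2 of 18 (median -0.11). Arnt, the partner of HIF-1 alpha, was lower in CK-p25 than in CK (-0.53 ± 0.13, adjusted p = 0.0151). Its 3-month difference did not pass (-0.68 ± 0.33, adjusted p = 0.154). Slc2a6, a glucose transporter family member of lysosomes, had the largest difference of these other pathway genes in all 3 comparisons. It measured 2.46, 2.26 and 2.63 FPKM in CK, against 31.4, 32.5 and 32.0 in CK-p25 and 55.2, 39.6 and 23.2 in the knockout (3.26 ± 0.26, adjusted p = 7.49e-05, and 3.46 ± 0.26, adjusted p = 5.71e-05), and 5.37, 3.35 and 5.94 against 72.0, 28.3 and 133 at 3 months (3.51 ± 0.51, adjusted p = 0.00336). Every library of the higher groups was above every library of its reference group. Mif, a cytokine gene and HIF target, rose by 1.96 ± 0.25, 2.15 ± 0.25 and 2.12 ± 0.29 in the same order. In CK-p25 the next largest were Pygl, the liver form of glycogen phosphorylase (1.78 ± 0.20), Hmox1, which degrades heme (1.48 ± 0.13), Ddit4, an inhibitor of mTORC1 (-1.34 ± 0.35), and 9630033F20Rik, now named Tigar (1.24 ± 0.20). At 3 months the others were Angptl4, a secreted inhibitor of lipoprotein lipase (2.57 ± 0.25), Fam162a (2.16 ± 0.29), Pdk3, a pyruvate dehydrogenase kinase (1.22 ± 0.31), and Vhl, the ubiquitin ligase subunit that binds hydroxylated HIF-1 alpha. Vhl measured 88.0, 78.2 and 83.9 FPKM in MIC_CX3CR1 and 29.9, 18.4 and 35.7 in MIC_PU1 (-1.59 ± 0.25, adjusted p = 0.00432).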

How the data were processed

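Sorted microglial RNA was amplified with SMART-Seq v4 and tagmented with Nextera XT, which keep no strand, per the labels' protocols. The authors deposited FPKM values per gene. The submitters' processing notes name TopHat, Bowtie, Cufflinks 2.0.0 and mm9. All 15 columns were matched to samples by the description in the labels. Read totals are not given in the sources used here, and relative depth was taken from the commonest ratio of values under 1 FPKM between libraries.

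Values were analysed as log2(FPKM + 1) for genes whose mean over a table reached 1 FPKM, with limma 3.58.1 in R 4.3.3 (mean-variance trend, Benjamini-Hochberg over all genes, threshold 0.05, two-sided), in 1 fit of 6 libraries and 1 of 9, and tested on simulated data. Differences have the SE of the fit. Deviations of same-numbered libraries from their group means had correlations from -0.0487 to 0.1665. This cannot show whether the numbers pair them, since differently numbered libraries were not compared. Full values are given for Spi1, the 26 called genes at 4.5 months with the largest differences, the isozyme families, the 3 smallest p of the other comparisons and up to 6 of the related genes. The genes and lists were chosen with earlier results of these data known. Alternatives were another pseudocount, filters, scaling, a replicate block, the compared libraries alone and leaving out each library.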

Additional observations from a re-analysis of the deposited data

How the results depend on the processing

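Leaving out 1 library at a time moved the number of genes that were higher between 13 and 25 at 3 months, 16 and 25 in CK-p25 against CK, and 18 and 25 in CK-p25 PU.1cKO against CK. The number that were lower moved between 2 and 5 at 3 months and between 0 and 1 in both other comparisons. With no filter on low values 0 were lower in CK-p25 PU.1cKO against CK, where Ldhb missed the threshold, as did Slc2a3 among those that were higher. With the replicate block 19, 24 and 22 genes were higher and 5, 1 and 1 lower in these comparisons. Over all genes the block gave 2014, 1903 and 1925 higher and 1367, 1404 and 1326 lower. Between CK-p25 PU.1cKO and CK-p25, 0 genes of the list passed with the block or in any alternative run. Without CK-p25 PU.1cKO replicate 3, 12 and 13 of all genes were higher and lower in that last comparison. Over all genes, leaving out 1 library gave 960 to 2721 higher and 580 to 2010 lower at 3 months (1925 and 1344 in the full fit), 1373 to 2360 and 902 to 2162 in CK-p25 (1922 and 1490) and 1453 to 2650 and 908 to 2398 in CK-p25 PU.1cKO (1937 and 1447). Quantile normalization gave 2086 lower at 3 months, and fitting only the compared libraries gave 2396 lower in CK-p25 PU.1cKO against CK. No difference of a gene of the list changed sign and passed. Every alternative kept the call of 16 of 24 genes in CK-p25, 18 of 23 in CK-p25 PU.1cKO and 15 of 23 at 3 months, where a filter did not remove the gene. FPKM carry no read totals, so counting error cannot be given, and genes under 1 FPKM, such as P4ha2 at 4.5 months, were not tested.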
